A study of Mus musculus with 12 samples.

Results

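The 10 genes Gja1, Gja5, Gjc1, Cdh2, Dsp, Jup, Pkp2, Dsg2, Xirp1 and Xirp2 encode parts of the junctions that join heart muscle cells, and they were taken by name from the 23423 rows of a gene expression table. All 10 have a row. Messenger RNA was sequenced in 12 libraries from hearts of CD1 mice taken on postnatal day 1.5, in 6 groups of 2 libraries. Fibroblasts transduced for 3 days carried Mef2c, Gata4 and Tbx5 from a retrovirus (MGT) plus a lentiviral short hairpin against Ptbp1 (shPtbp1), MGT plus a non-targeting hairpin (shNT), MGT alone, or a control retrovirus, which the labels call lacZ in one place and empty vector in another. The other groups were fresh cardiomyocytes from a commercial neonatal isolation kit (CM) and the fresh Thy1-sorted fibroblasts (CF). Ptbp1 encodes a repressor of alternative splicing. No label says that the libraries of a group came from separate animals or cultures, so the p-values measure the spread between these libraries, which may be technical.

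The intercalated disc is the end-to-end contact between cardiomyocytes. Gap junctions made of connexins pass ions and small molecules between the cells, adherens junctions built on N-cadherin tie the membrane to actin, and desmosomes tie it to desmin filaments. Xin repeat proteins sit at the disc and bind actin. Conversion of fibroblasts to induced cardiomyocyte-like cells aims at cells that could couple to their neighbours, which is why these genes are of interest there.

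The libraries held 49320858 to 94005212 assigned reads, so that 1 read was worth 0.0106 to 0.0203 CPM, the read count scaled to the library total. Levels below are CPM divided by a factor per library that aligns the libraries on their typical gene (scaled CPM). Ptbp1 was at 81.7 and 79.1 scaled CPM with shPtbp1 and between 356 and 486 in the other 10 libraries. The fresh groups were mixed by their markers. The summed level of 15 cardiomyocyte markers was 20495 to 21390 scaled CPM in CM and 2078 to 2135 in CF, where all 15 were at 1 or more in both libraries, and that of 12 fibroblast markers was 22176 to 22295 in CM and 40985 to 41831 in CF. In bulk RNA, fewer cells of a type and less RNA per cell cannot be told apart.

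Across the 6 groups the desmosomal and Xin genes covered a wide range and plakoglobin almost none. The highest group mean was 59.8 times the lowest for Dsg2, 47.7 times for Xirp1 and 26.0 times for Xirp2, against 1.40 times for Jup. CM held the highest mean of 6 members (Gja1, Gja5, Pkp2, Dsg2, Xirp1 and Xirp2). MGT with shPtbp1 held that of Cdh2 and Jup, MGT alone that of Dsp and CF that of Gjc1. With the groups put in order of their mean, neighbours overlapped for Gja5 (CM and CF, shPtbp1 and control), Gjc1 (MGT and control), Cdh2 (shPtbp1 and shNT), Dsp (shPtbp1 and CM) and Jup (CM and control). They also did for Pkp2 (shNT and control), Dsg2 (MGT and control), Xirp1 (shNT and CF) and Xirp2 (shPtbp1 and CF), but for no pair with Gja1. All 10 members passed the filter of 1 CPM in at least 2 libraries, as 13977 genes did. Dsg2 reached 1 CPM in 8 of the 12 libraries and Xirp2 in 9, with as few as 39 and 48 reads in a library, so their values are the least precise.

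**Figure D1:**
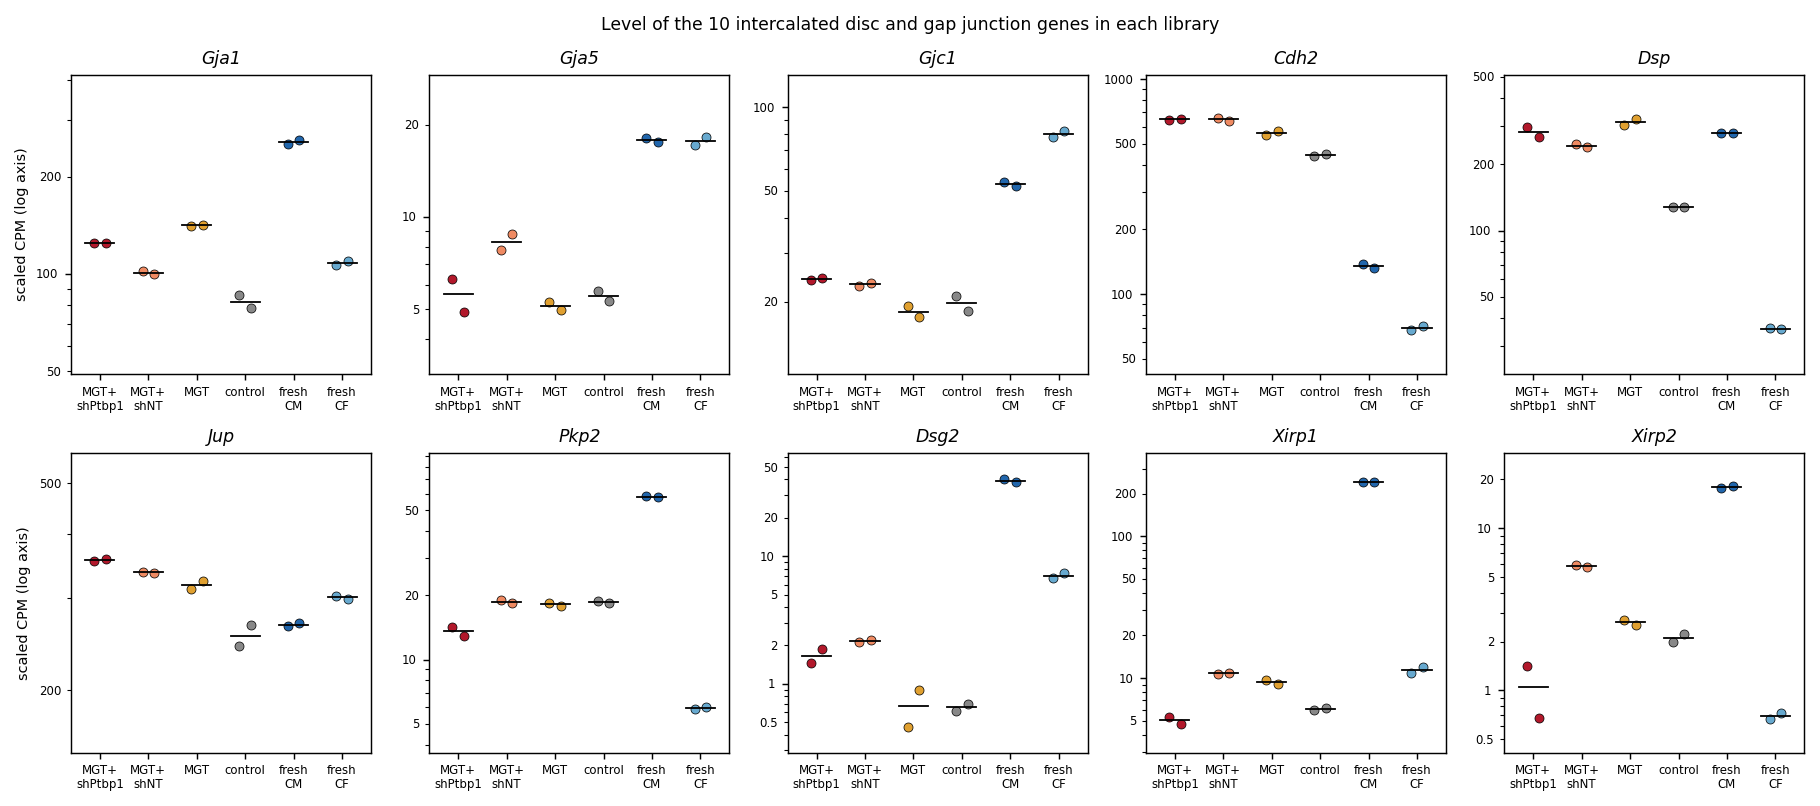
Scaled CPM of the 10 genes in each library, on log axes, with 2 points per group and a bar at the group mean. Cdh2 is higher in all 8 cultured libraries (442 to 657) than in the 4 fresh ones (67.9 to 138), and Xirp1 and Dsg2 stand out in CM.

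Promoter sequence is shown for the 3 members with a RefSeq window at hand (GRCm38.p6) that were higher with MGT, and for Xirp2, the member that moved most with shPtbp1. Each line gives the 250 bases before the gene's RefSeq start, 5′ to 3′ on the gene's strand. For Gja1 and Jup that start differs from the one in the gene locations given below, which come from GENCODE. Capitals mark matches, on either strand, to the letters GATAA (GATA factors), AGGTGT (T-box factors) or CTANNNNTAG (MEF2 factors). The window of Dsp is at chr13:38151044-38151293 (plus strand), that of Gja1 at chr10:56377050-56377299 (plus), that of Jup at chr11:100397791-100398040 (minus) and that of Xirp2 at chr2:67445752-67446001 (plus).
Dsp: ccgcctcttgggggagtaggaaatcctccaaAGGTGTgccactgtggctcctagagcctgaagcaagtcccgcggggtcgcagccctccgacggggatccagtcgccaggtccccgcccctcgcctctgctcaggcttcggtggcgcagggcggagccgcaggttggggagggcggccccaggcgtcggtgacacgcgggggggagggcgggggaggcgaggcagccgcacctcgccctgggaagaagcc
Gja1: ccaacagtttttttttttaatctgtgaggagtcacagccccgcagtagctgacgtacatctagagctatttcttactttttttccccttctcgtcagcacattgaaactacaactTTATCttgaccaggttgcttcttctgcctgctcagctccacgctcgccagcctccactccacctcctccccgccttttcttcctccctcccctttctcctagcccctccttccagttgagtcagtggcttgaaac
Jup: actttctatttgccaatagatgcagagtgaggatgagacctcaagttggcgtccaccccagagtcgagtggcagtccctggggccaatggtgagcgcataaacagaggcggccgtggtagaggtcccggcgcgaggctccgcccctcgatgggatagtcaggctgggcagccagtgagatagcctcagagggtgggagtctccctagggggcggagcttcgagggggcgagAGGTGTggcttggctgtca
Xirp2: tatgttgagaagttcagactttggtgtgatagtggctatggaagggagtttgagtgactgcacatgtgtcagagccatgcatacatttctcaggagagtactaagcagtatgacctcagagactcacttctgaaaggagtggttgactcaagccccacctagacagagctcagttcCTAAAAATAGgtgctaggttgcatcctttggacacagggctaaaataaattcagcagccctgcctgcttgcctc
Dsp and Jup each held AGGTGT, at positions -219 to -214 and -19 to -14 from the start. Gja1 held the reverse complement of GATAA at -135 to -131, and Xirp2 held CTAAAAATAG at -74 to -65. The window of Gja5 held none of these letters, and none of the 5 windows searched held CAGCTG, the E-box letters. Of 32851 windows of the same length, 11.8% held AGGTGT, 22.6% GATAA, 3.20% CTANNNNTAG and 33.5% any of them. A match describes letters only.

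In CM against CF, most disc genes were higher, led by the Xin genes and the desmosomal plakophilin and desmoplakin. By limma with Benjamini-Hochberg adjustment over all 13977 genes, 7 of the 10 members were higher and 2 lower in CM, against 35.0% of all genes higher and 41.9% lower. The median log2 fold change was 1.82 for the members and -0.05 for all genes tested. At 2-fold or more, 6 of the 10 were higher, against 8.20% of all genes.

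Xirp1 (chr9:120013755-120023598, minus strand), which encodes Xin, was at 242 and 239 scaled CPM in CM, against 10.9 and 11.96 in CF. Xirp2 (chr2:67446002-67526614, plus strand), which encodes the related protein Xin repeat-containing 2, was at 17.7 and 18.2 in CM, against 0.661 and 0.723 in CF. Both genes were far apart between the groups, with log2 fold changes of 4.34 (SE 0.07) and 3.95 (SE 0.15) and limma adjusted p-values of 8.27e-20 and 2.45e-14.

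Pkp2 (chr16:16213318-16272712, plus strand) encodes plakophilin-2, which anchors desmosomal cadherins inside the cell. It was at 58.2 and 57.9 scaled CPM in CM, against 5.87 and 6.01 in CF (log2 fold change 3.18, limma adjusted p = 8.43e-19). Dsp (chr13:38151294-38198577, plus strand) encodes desmoplakin, the link from the desmosome to desmin. It was at 278 in both CM libraries, against 36.1 and 35.5 in CF (2.94, limma adjusted p = 2.19e-20). Dsg2, for the desmosomal cadherin desmoglein-2 on chromosome 18, was at 40.4 and 37.9 in CM, against 6.69 and 7.33 in CF (2.40, limma adjusted p = 1.16e-11). None of these 3 genes overlapped between the groups. Jup (chr11:100368958-100397763, minus strand) encodes plakoglobin, which serves both desmosomes and adherens junctions, and was instead slightly lower, at 265 and 269 in CM and 303 and 299.8 in CF (-0.17, limma adjusted p = 0.000602).

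Gja1 (chr10:56377330-56402513, plus strand), for the main connexin of the working ventricle, was at 252 and 259 scaled CPM in CM, against 107 and 109 in CF (log2 fold change 1.24, limma adjusted p = 1.61e-15). Gjc1 (chr11:102799579-102819700, minus strand), for a connexin of the early heart and the nodes, went the other way, with 54.0 and 52.0 in CM and 78.0 and 81.8 in CF (-0.59, limma adjusted p = 4.31e-08). Gja5 (chr3:96904693-97077416, plus strand), for a connexin of atrium, conduction system and arterial endothelium, overlapped, with 18.1 and 17.6 in CM and 17.2 and 18.2 in CF (0.01, limma adjusted p = 0.938). Cdh2, for N-cadherin on chromosome 18, was at 138 and 132 in CM and 67.9 and 71.4 in CF (0.95, limma adjusted p = 1.81e-14). Endothelial markers, which bear on Gja5, summed to 5402 to 5418 in CM and 4438 to 4502 in CF over 14 genes, of which 9 were higher and 1 lower in CM, and their part in the result was not tested. An exon of Gja5 overlaps Gpr89 on the opposite strand, and the strand setting of the counting is not stated.

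Every member differed between control cultures and the fresh CF, where the days in culture, the control virus and cell make-up cannot be told apart. The genes of the 3 factors differed as well. Tbx5 was at 648 and 681 scaled CPM in control cultures and 6.86 and 7.45 in CF. Gata4 was at 343 and 377 in control cultures and 217 and 216 in CF, and Mef2c at 315 and 332 against 138 and 137. The part of these levels in the members' differences was not tested. In control cultures against the fresh CF, 4 of the 10 were higher and 6 lower by limma, against 44.5% of all genes higher and 42.6% lower, and the median log2 fold change was -0.32 for the members and 0.03 for all genes. N-cadherin, desmoplakin, plakophilin-2 and Xirp2 were the higher ones, while the 3 connexins, Jup, Dsg2 and Xirp1 were lower.

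Cdh2 was at 442 and 447 scaled CPM in control cultures, against 67.9 and 71.4 in CF (log2 fold change 2.66, limma adjusted p = 6.48e-22). Dsp was at 128 and 127 in control cultures and 36.1 and 35.5 in CF (1.82, limma adjusted p = 2.51e-18), and Pkp2 at 18.8 and 18.5 in control cultures and 5.87 and 6.01 in CF (1.57, limma adjusted p = 6.82e-15). All 3 were thus higher in every control library than in either CF library. Among the lower members, Gjc1 was at 21.0 and 18.4 in control cultures and 78.0 and 81.8 in CF (-1.99, limma adjusted p = 1.15e-16), Gja5 at 5.74 and 5.32 against 17.2 and 18.2 (-1.60, limma adjusted p = 9.92e-12), and Dsg2 at 0.617 and 0.692 against 6.69 and 7.33 (-2.70, limma adjusted p = 6.37e-13). The 14 endothelial markers were lower as well, all 14 by limma, and summed to 642 to 670 in control cultures and 4438 to 4502 in CF. Of 8 arterial endothelial genes 7 were lower and 1 higher, with Dll4 at 0.148 to 0.444 in control cultures and 48.4 to 51.1 in CF. Their part in the lower Gja5 was not tested. Of 15 cardiomyocyte markers 12 were lower and 3 higher, with sums of 2776 to 2973 in control cultures and 2078 to 2135 in CF. Most of the control sum was Tnnt2 alone, at 2436 and 2198 in control cultures and 180 and 188 in CF. The higher sum therefore does not describe the list. Of 13 macrophage markers 10 were higher and 2 lower, with sums of 4100 to 4320 in control cultures and 1312 to 1321 in CF. Of 12 fibroblast markers 7 were lower and 3 higher. The part of all these markers' cells in the members' differences was not tested. The smaller differences were -0.39 for Gja1, -0.24 for Jup, -0.86 for Xirp1 and 1.12 for Xirp2, with limma adjusted p-values of at most 1.12e-05.

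The MGT comparison asks which disc genes differ 3 days after the 3 factors were delivered. The factors' own genes were also read with control vector. Tbx5 was at 1779 and 1859 scaled CPM with MGT and 648 and 681 with control vector. Gata4 was at 687 and 705 with MGT and 343 and 377 with control vector, and Mef2c at 724 and 766 against 315 and 332. The part of these levels in the members' differences was not tested. Desmoplakin rose most, followed by the main ventricular connexin and Xin. By limma, 5 of the 10 members were higher with MGT than with control vector and 0 were lower, against 18.0% of all genes higher and 17.6% lower. Without MGT replicate 2, the number of all genes called lower was 1600, against 2465 with it. The median log2 fold change was 0.30 for the members and -0.01 for all genes.

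Dsp was at 303 and 320 scaled CPM with MGT, against 128 and 127 with control vector. Its log2 fold change of 1.28 (SE 0.04, limma adjusted p = 8.01e-14) corresponds to a 2.43-fold higher level, and 0.315% of all genes tested lay as far from 0. Dsp with MGT was thereby above its level of 278 in CM. Gja1 was at 141 and 142 with MGT and 86.0 and 78.2 with control vector (0.78, limma adjusted p = 3.08e-11), which placed it at 55.3% of the CM level with MGT and 32.1% with control vector. Xirp1 was at 9.65 and 9.09 with MGT and 5.93 and 6.17 with control vector (0.59, limma adjusted p = 2.66e-06). That rise left Xirp1 at 3.89% of its CM level.

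The remaining called members moved less. Cdh2 was at 552 and 571 scaled CPM with MGT and 442 and 447 with control vector (log2 fold change 0.34, limma adjusted p = 6.99e-07), and Jup at 312 and 325 with MGT and 243 and 267 with control vector (0.32, limma adjusted p = 3.49e-06). Groups did not overlap for either gene. The desmosomal genes other than Dsp and Jup did not pass the test. Pkp2 was at 18.4 and 17.9 with MGT and 18.8 and 18.5 with control vector, and Dsg2 at 0.462 and 0.886 with MGT and 0.617 and 0.692 with control vector. The Dsg2 libraries overlapped, while those of Pkp2 did not, though it was not called. Gja5 (-0.10), Gjc1 (-0.09) and Xirp2 (0.27) also missed it, with limma adjusted p-values of 0.465, 0.248 and 0.188. Of 15 cardiomyocyte markers 10 were higher and 1 lower with MGT. Of 13 macrophage markers 7 were lower and 1, Cd68, higher, with overlapping sums of 4198 to 4325 scaled CPM with MGT and 4100 to 4320 with control vector. Of 14 endothelial markers 8 were lower and 1 higher. Of 12 fibroblast markers 9 were lower and 2 higher, with sums of 17039 to 17212 with MGT and 20926 to 23088 with control vector. Of 9 epicardial and mesothelial markers 6 were lower and 1 higher, with sums of 139 to 143 with MGT and 176 to 178 with control vector. Their part in the members' differences was not tested.

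**Figure D2:**
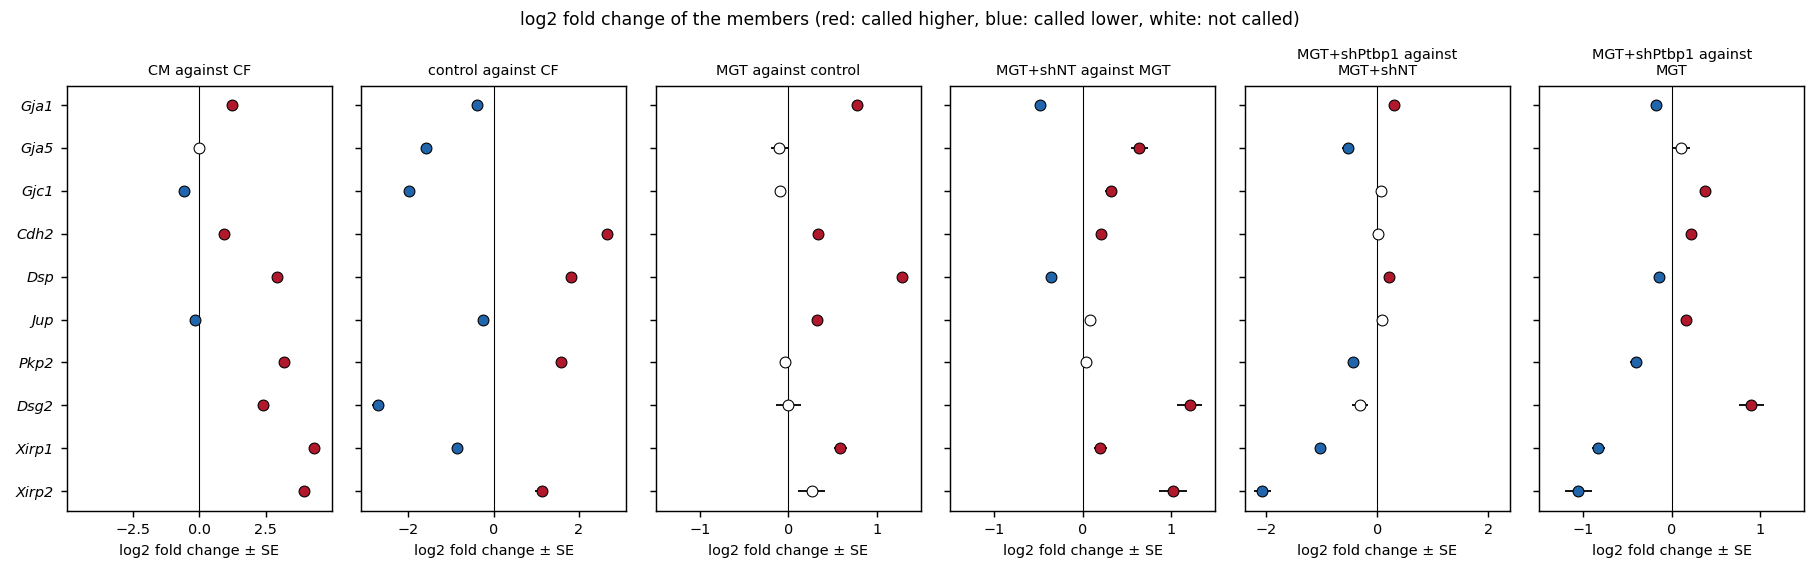
Log2 fold change with its standard error for the 10 genes in the 6 comparisons, on log2(scaled CPM + 0.5) values, with a separate horizontal scale per panel. Red points were called higher, blue points lower and white points were not called. Dsp and Gja1 lead in MGT against control, and Xirp2 and Xirp1 are the lowest points with shPtbp1 against shNT.

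Because level cannot be compared between genes without their length, the make-up of each junction was taken from scaled CPM per kilobase of exon. The connexin sum covers Gja1, Gja5 and Gjc1 and leaves out Gja3, Gja4 and any others. Of this sum, Gja1 made up 75.1% with MGT and 62.1% with control vector, and 64.6% in CM and 35.6% in CF, where Gjc1 made up 54.0%. The sum of these 3 connexins was 18.2 to 18.5 scaled CPM per kilobase with MGT and 12.2 to 13.6 with control vector, and 38.5 to 38.7 in CM. Of the 4 desmosomal genes, Dsp made up 37.9% with MGT and 23.5% with control vector, and 33.5% in CM. Pkp2 and Dsg2 made up 12.6% and 5.52% in CM. With MGT they were 3.98% and 0.0950%, and with control vector 6.18% and 0.140%. The summed desmosomal level with MGT, 83.4 to 87.0 scaled CPM per kilobase, spanned that of CM, 85.8 to 86.0, while its make-up was richer in Jup, which was 58.1% with MGT and 48.4% in CM.

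**Figure D3:**
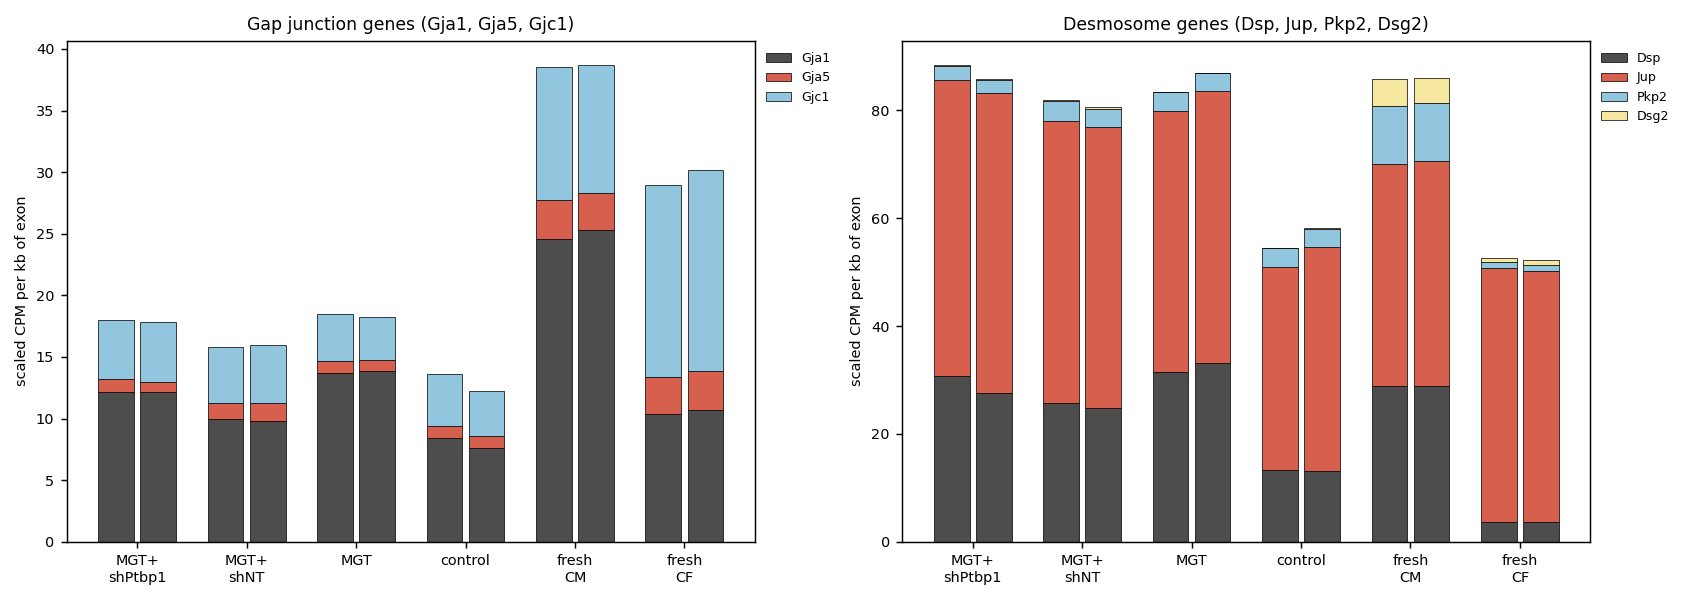
Level of each gene in scaled CPM per kilobase of exon, stacked for the 3 connexins (left) and the 4 desmosomal genes (right), with 1 bar per library. Pkp2 and Dsg2 form their widest bands in CM, and Gjc1 is the largest piece of the CF connexin bars.

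Members also differed between cultures with and without the non-targeting hairpin virus, at the same time point and with the same 3 factors delivered. The factors' own genes differed in level. Mef2c was at 479 and 473 scaled CPM with shNT and 724 and 766 with MGT alone. Gata4 was at 648 and 630 with shNT and 687 and 705 with MGT alone, and Tbx5 at 1570 and 1551 against 1779 and 1859. The part of these levels in the members' differences was not tested. With shNT against MGT alone, 6 of the 10 were higher and 2 lower by limma, against 24.6% of all genes higher and 20.1% lower. The median log2 fold change was 0.20 for the members and 0.02 for all genes. Dsg2 was at 2.14 and 2.19 scaled CPM with shNT and 0.462 and 0.886 with MGT alone (log2 fold change 1.21, limma adjusted p = 9.02e-07), and Xirp2 at 5.93 and 5.74 with shNT and 2.71 and 2.53 with MGT alone (1.02, limma adjusted p = 2.19e-05). Both low genes were thus higher in each shNT library. Gja5 (0.64, limma adjusted p = 2.83e-05), Gjc1 (0.32) and Cdh2 (0.21) were higher too. Xirp1 (0.20, limma adjusted p = 0.0285) was at the edge of the threshold and lost its call without either shNT library (0.0714 and 0.117) or without MGT replicate 2 (0.168). The call was also lost in limma fits of only the 4 compared libraries (0.0590) or only the 8 libraries of day 3 (0.0798).

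The main connexin and desmoplakin were lower with shNT. Gja1 was at 102 and 100.2 scaled CPM with shNT and 141 and 142 with MGT alone (log2 fold change -0.48, limma adjusted p = 8.90e-09), and Dsp at 248 and 239 with shNT and 303 and 320 with MGT alone (-0.36, limma adjusted p = 1.51e-06). The groups did not overlap for either. The 13 macrophage markers were all lower with shNT by limma, with sums of 1466 to 1520 with shNT and 4198 to 4325 with MGT alone. Of 14 endothelial markers 8 were higher and 1 lower. Their part in the members' differences was not tested.

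The comparison of shPtbp1 with shNT, both on MGT, addresses the effect of lowering Ptbp1 during conversion. The Xin genes fell and the main connexin and desmoplakin rose. By limma, 2 of the 10 members were higher and 4 lower, against 17.0% of all genes higher and 17.8% lower, and the median log2 fold change was -0.15 for the members and 0 for all genes. At 2-fold or more, 2 of the 10 were lower, against 0.222% of all genes. This comparison shares its shNT libraries with the one of shNT against MGT alone.

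Xirp2 was at 1.41 and 0.678 scaled CPM with shPtbp1, against 5.93 and 5.74 with shNT, from 110 and 48 reads and from 517 and 498 reads. Both shPtbp1 libraries lay well below both shNT libraries and differed between themselves. The log2 fold change of -2.08 (SE 0.15, limma adjusted p = 6.20e-09) is a 4.23-fold lower level, and 0.0286% of all genes tested lay as far from 0. Without shPtbp1 replicate 1 it was -2.43 and without replicate 2 -1.73. Xirp2 was at 5.80% of its CM level with shPtbp1 and 32.5% with shNT, and at 14.6% with MGT alone and 11.7% with control vector.

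Xirp1 was at 5.31 and 4.79 scaled CPM with shPtbp1 and 10.7 and 10.9 with shNT, again without overlap (log2 fold change -1.03, SE 0.07, limma adjusted p = 2.45e-09). Pkp2 was at 14.2 and 12.9 with shPtbp1 and 19.0 and 18.3 with shNT (-0.45, limma adjusted p = 1.43e-05). Gja5 was at 6.27 and 4.90 with shPtbp1 and 7.79 and 8.78 with shNT (-0.54, limma adjusted p = 0.000314). All 3 were lower in every shPtbp1 library than in either shNT library, but the uncalled Gjc1, Jup and Dsg2 did not overlap either. Gja1 rose, at 124 and 125 with shPtbp1 and 102 and 100.2 with shNT (0.30, limma adjusted p = 1.07e-05), and so did Dsp, at 297 and 267 with shPtbp1 and 248 and 239 with shNT (0.21, limma adjusted p = 0.000886). The Dsp difference was 0.13 (limma adjusted p = 0.0217) without shPtbp1 replicate 1. Cdh2 (0.01), Gjc1 (0.06), Jup (0.08) and Dsg2 (-0.31) did not pass, with limma adjusted p-values of 0.929, 0.449, 0.137 and 0.0970. Of the 13 macrophage markers 9 were lower and 1 higher with shPtbp1, and their sum was 1623 to 1672 with shPtbp1 and 1466 to 1520 with shNT. Of the 15 cardiomyocyte markers 11 were higher and 0 lower, with sums of 4783 to 5150 with shPtbp1 and 3966 to 4262 with shNT. Most of these sums was Tnnt2, at 3823 and 4156 with shPtbp1 and 3186 and 3468 with shNT. Of the 9 epicardial and mesothelial markers 5 were lower and 2 higher. Their part in the members' differences was not tested.

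Against MGT alone, whose libraries carry no hairpin virus, shPtbp1 cultures were lower for both Xin genes as well. Both groups also enter the comparisons above. Here 4 of the 10 members were higher and 5 lower by limma, against 24.6% of all genes higher and 19.8% lower. Xirp2 differed by -1.06 (limma adjusted p = 1.55e-05) and Xirp1 by -0.83 (limma adjusted p = 1.24e-08) on the log2 scale. Pkp2 was also lower (-0.41, limma adjusted p = 2.31e-05), while Dsg2 (0.90), Gjc1 (0.38), Cdh2 (0.22) and Jup (0.16) were higher. Gja5, lower against shNT, was not called against MGT alone (0.10, limma adjusted p = 0.421). It was at 6.27 and 4.90 scaled CPM with shPtbp1 and 5.27 and 4.98 with MGT alone. Gja1, higher against shNT, was lower against MGT alone (-0.18, limma adjusted p = 0.00102). The same was true of Dsp (-0.15, limma adjusted p = 0.00926), whose call was lost without shPtbp1 replicate 2 (-0.07, limma adjusted p = 0.209) or MGT replicate 2 (-0.11, limma adjusted p = 0.121), and in the limma fit of only the 4 compared libraries (0.0631). All 13 macrophage markers were lower, with sums of 1623 to 1672 with shPtbp1 and 4198 to 4325 with MGT alone.

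The related junction lists had calls in both directions. In CM against CF, 17 of 19 tested disc-associated genes were higher and 1 lower, and all 6 tested further desmosome-linked genes were higher, against 35.0% of all genes higher and 41.9% lower. The other cadherins had 1 higher and 6 lower of 9, the catenins and adherens partners 6 higher and 10 lower of 18, and the other connexins and pannexins 1 higher and 3 lower of 5. Csrp3, for a muscle LIM protein, was at 168.9 ± 8.76 scaled CPM in CM and 13.2 ± 0.310 in CF, and Perp, for a desmosomal membrane protein, at 65.1 ± 1.41 in CM and 7.68 ± 0.128 in CF (SD, n = 2 libraries each). In control cultures against CF, against 44.5% of all genes higher and 42.6% lower, the disc-associated list had 7 higher and 11 lower, the desmosome-linked list 1 higher and 3 lower, and the other cadherins 3 higher and 6 lower. The catenins and adherens partners had 8 higher and 10 lower, and the other connexins and pannexins 2 higher and 3 lower.

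With MGT against control vector, 11 of the 19 disc-associated genes were higher and 3 lower, and 5 of the 6 desmosome-linked genes were higher and 0 lower, against 18.0% of all genes higher and 17.6% lower. The catenins and adherens partners had 7 higher and 5 lower, the other cadherins 2 higher and 2 lower, and the other connexins and pannexins 1 higher and 1 lower. Des, for desmin, was at 848 ± 13.1 scaled CPM with MGT and 461 ± 13.9 with control vector (log2 fold change 0.88, limma adjusted p = 1.26e-11). Gja3, for a connexin best known from the lens, was at 22.3 ± 0.486 with MGT and 10.1 ± 0.939 with control vector (1.11, limma adjusted p = 2.23e-09). Ctnna3, for the heart alpha-T-catenin, was at 5.21 ± 0.392 with MGT and 2.35 ± 0.0390 with control vector (1.00, limma adjusted p = 2.22e-07).

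With shPtbp1 against shNT, 7 of the 19 disc-associated genes were higher and 3 lower, against 17.0% of all genes higher and 17.8% lower. The catenins and adherens partners had 2 higher and 9 lower, the desmosome-linked genes 3 higher and 1 lower, the other cadherins 2 higher and 3 lower, and the other connexins and pannexins 1 higher and 0 lower. The disc-associated genes with the largest changes went both ways. Nrap, for an actin-binding protein of the disc and growing myofibrils, was at 3.01 ± 0.0368 scaled CPM with shPtbp1 and 5.59 ± 0.251 with shNT (log2 fold change -0.79, limma adjusted p = 1.68e-07). Cxadr, for a cell adhesion protein of the disc, was at 9.74 ± 1.08 with shPtbp1 and 5.40 ± 0.372 with shNT (0.79). In MGT alone Nrap was at 6.62 ± 0.514 and Cxadr at 8.41 ± 0.721. With shNT against MGT alone, the catenins and adherens partners had 11 higher and 1 lower, against 24.6% of all genes higher and 20.1% lower. The disc-associated genes had 2 higher and 5 lower there. With shPtbp1 against MGT alone, the catenins and adherens partners had 4 higher and 3 lower, against 24.6% and 19.8% of all genes. The disc-associated genes there had 9 higher and 4 lower. In shPtbp1 against shNT 16 of 25 sarcomere genes were higher and 2 lower, with a median of 0.26. In CM against CF 24 sarcomere genes were higher and 1 lower (median 3.37), against 35.0% and 41.9% of all genes. In MGT against control 19 were higher and 1 lower (median 0.57), against 18.0% and 17.6% of all genes.

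**Figure D4:**
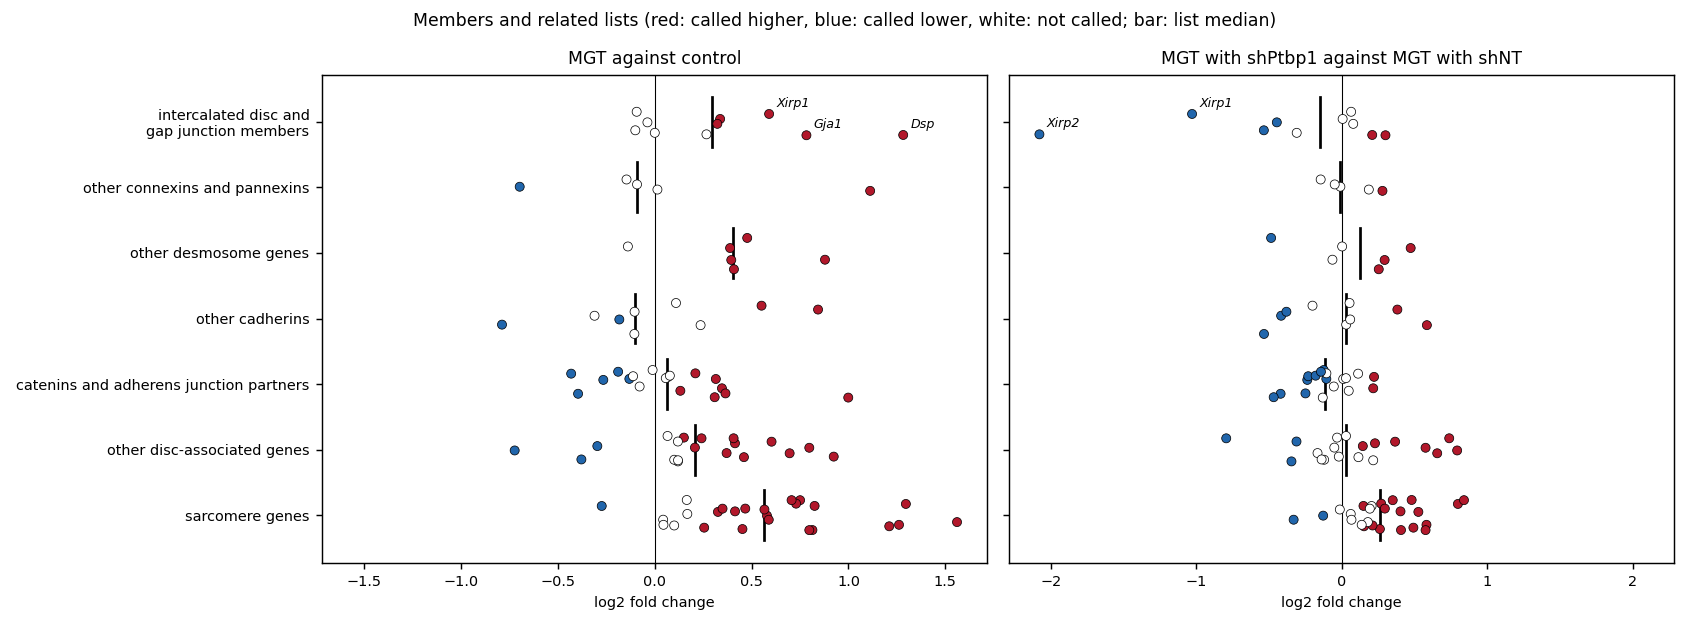
Log2 fold change of the 10 genes and of related lists in MGT against control (left) and in shPtbp1 against shNT (right), with 1 point per gene and a bar at the list median. Red points were called higher, blue points lower and white points were not called, and members with the larger changes are named. In shPtbp1 against shNT, Xirp2 and Xirp1 lie far to the left of their list's median.

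By the Pearson correlation of log2 levels over the 12 libraries, among 10432 other genes with enough signal, Dsp was most like Synpo2l (r = 0.996) and Sptb (0.990), and Gja1 was most like Ttn (0.974) and Asb11 (0.966). Xirp2 was most like Myocd (0.956) and Synrg (0.956), Xirp1 like Dnajb9 (0.994), and Pkp2 like Sap30 (0.991). Few genes reached 0.95 with Gja1 (4), Xirp2 (4) and Dsp (35), and 0 did with Jup, whose nearest was Sri (0.946). With Cdh2 869 genes did and with Gjc1 878, and both patterns part cultured from fresh libraries. These values describe 6 groups of 2 libraries that share their cell source and culture, and no test was made of them.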

How the data were processed

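The authors deposited CPM values in 1 table of 23423 genes, and its 12 columns were matched to the samples by name. The libraries came from poly(A) RNA and a kit that marks strand, per the labels' protocols. The submitters' processing notes name FastQC, TopHat2 2.1.0, HTSeq 0.6.1p1 and mm10. Annotation and strand setting: not given in the sources used here. Antisense and overlapping genes may therefore share reads. All CPM values (100%) were multiples of a single read to within 0.1 reads, which gave back the read counts. The shPtbp1 replicate whose source name reads Ptbp2 was grouped by title.

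For scaling, a median-of-ratios factor was computed for each library (0.96 to 1.07). Genes that reached 1 CPM in 2 or more libraries (13977) were tested on log2(scaled CPM + 0.5) in limma 3.58.1 (R 4.3.3), using all 12 libraries, a mean for each group, 6 residual degrees of freedom and a trended prior variance. Fold changes on this scale understate the change of low genes. Two-sided p-values were adjusted by Benjamini-Hochberg over all genes within each of 6 comparisons (threshold 0.05), and the fit was tested on simulated data. The simulated libraries were drawn independently, with a fixed spread and few genes changed between the compared groups. That test therefore does not bear on replicates that may be technical, nor on comparisons with many called genes. Comparisons that use the same libraries are not independent. With 2 libraries a group, lack of overlap between groups is weak by itself, and its share over all genes was not counted. Alternatives were the count models edgeR 4.0.16 and DESeq2 1.42.0 on the recovered reads, and other scalings, pseudocounts, filters and sample sets. Locations and exon lengths come from GENCODE M21 (GRCm38, the build also called mm10).

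The members, gene lists and tests were chosen with earlier results of these data known. All members are named. From each related list, up to 4 genes per comparison could be named, those with the largest called changes among genes whose higher mean was 5 scaled CPM or more, and only some of these are printed. Genes like a member in pattern are the 2 with the highest correlation, also printed in part.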

Additional observations from a re-analysis of the deposited data

How the results depend on the processing

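Of 1000 member values recomputed under the alternatives, 974 kept their direction and their side of the threshold, 8 called values lost the call, 3 gained one and 15 changed sign, 0 of them called with the settings used. In CM against CF, Gja5 (0.01) was -0.00232 without scaling, -0.0446 after quantile normalization and -0.00392 with edgeR, and -0.0307 to 0.0486 when single libraries were left out. In MGT against control, Dsg2 (0.00) was -0.00629 without scaling, -0.0130 with upper-quartile scaling, -0.0165 after quantile normalization and -0.0180 with a pseudocount of 0.1, and -0.262 to 0.264 when single libraries were left out. In shPtbp1 against shNT, Cdh2 (0.01) was -0.0154 after quantile normalization and -0.0102 to 0.0220 when single libraries were left out. In shPtbp1 against MGT alone, Gja5 (0.10) was -0.0588 to 0.269 when single libraries were left out. The number of members called lower in MGT against control was 0 to 1, the 1 being Gjc1 without control replicate 2. DESeq2 called Dsg2 lower with shPtbp1 than with shNT. The cause of these changes was not tested. Without scaling, the median of all genes in control against CF shifted by -0.13 on the log2 scale. In that comparison all 10 members kept their calls under each alternative run. Replicate numbers are shared between groups, but the correlation of same-numbered libraries lay between -0.027 and 0.161, and 2 pairs do not establish pairing. A replicate block changed no member's call: it gave 5 higher and 0 lower in MGT against control, and 2 higher and 4 lower in shPtbp1 against shNT. The 2 libraries per group and the few reads of Dsg2 and Xirp2 limit what small differences can be seen.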
